A study of Mus musculus with 48 samples.

Results

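Macrophages grown from bone marrow of mice lacking p53 were compared with wild-type macrophages after polarization with IL-4 and IL-13. By their titles, 6 of the 48 libraries of the series belong to this comparison, the 3 knockout (KO) and the 3 wild-type (WT) IL-4/IL-13 (M2) libraries that received vehicle only. Of 51789 genes in the count table, 11779 had enough counts to be tested. All 6 libraries come from C57BL/6 bone marrow hematopoietic stem cells that were cultured with 10 ng/mL M-CSF for 6 days, then with 10 ng/mL each of IL-4 and IL-13 for 24 h, and then with DMSO for 4 h. Values from other groups are given beside them where they were compared: M0 cells, for which the labels name no polarizing cytokine, M1 cells (LPS at 100 ng/mL with IFN-γ at 50 ng/mL, for 24 h), and M2 cells given 10 µM of the compound AP-3-84 in place of DMSO, each in both genotypes. Titles, descriptions and the series design separate p53 KO from WT mice, whereas the genotype field calls all of these libraries wild-type. Neither the deleted part of Trp53 nor the cells that carry the deletion are given in the labels, nor whether the replicates came from separate mice. The p-values therefore measure a spread between replicate libraries, taken over all 36 bone marrow-derived libraries of the series, which may be technical.

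p53 is a transcription factor that is held low by the ubiquitin ligase Mdm2 and is released from it by DNA damage and other stress. It binds DNA as a tetramer and induces genes of cell cycle arrest, apoptosis, DNA repair and antioxidant metabolism, Mdm2 among them, and the arrest it brings about lowers genes of DNA replication and mitosis indirectly through Cdkn1a. IL-4 and IL-13 signal through Stat6 and drive macrophages to alternative activation, a state marked by Arg1, Retnla, Chil3 and Mrc1.

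The 6 libraries held 3365693 to 4195908 counts. All of them carried the markers of the labelled state. Arg1, the arginase of alternative activation, was between 1003 and 2240 CPM in WT and between 1102 and 2815 CPM in KO (CPM are counts relative to library size, scaled by TMM), against at most 6.06 CPM in M0 libraries in vehicle. Nos2, Il12b, Il6 and Cxcl9, markers of LPS and IFN-γ activation, stayed at or below 16.6 CPM. In M1 libraries in vehicle their highest values were 4.77, 5.96, 2.38 and 5.54 CPM in WT. In KO these were 17.7, 64.3, 37.2 and 5.22 CPM. Their low levels therefore do not set WT M2 apart from WT M1. The replicates of each genotype differed from one another. WT replicate 1 had the highest sums of inflammatory genes, and KO replicate 1 stood apart from the other KO libraries. Over all genes tested, KO replicate 1 correlated more closely with WT replicate 2 (Pearson r = 0.971 across genes on the log2 scale) than with KO replicates 2 and 3 (0.960 and 0.942). Its levels of p53 target genes were nevertheless those of a KO library, as given below. In bulk RNA, fewer cells of a type and less RNA per cell cannot be told apart.

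More genes were lower than higher in KO among IL-4/IL-13 macrophages. Expression differed for 419 genes (3.56% of those tested, edgeR quasi-likelihood test, Benjamini-Hochberg adjusted p under 0.05), of which 276 were lower (2.34%) and 143 were higher (1.21%) in KO. Direct p53 targets, antioxidant genes driven by NRF2, inflammatory genes and lysosomal genes were among those that fell, and genes of DNA replication, mitosis and the interferon response among those that rose. The balance of directions depended on the scaling: with total counts in place of TMM, 640 genes were called, 490 higher and 150 lower, and the median log2 fold change over all genes moved from 0.01 to 0.19. It also depended on single libraries. Leaving out KO replicate 3, KO replicate 2 or WT replicate 1 left 97, 125 and 278 calls, and leaving out KO replicate 1 gave 916. These tests take the spread between replicates from all 36 libraries of such macrophages, and a fit to the 6 M2 vehicle libraries alone called 7 genes, all 7 lower, 0 of which were on the NRF2, inflammatory, lysosomal, cell cycle or interferon lists. Of the 419 genes, 61 were called in every one of the 6 fits that left out a library, 50 of them lower and 11 higher in KO.

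Trp53 itself (chr11:69580359-69591873, plus strand, protein coding, in GENCODE M21 on GRCm38) could not serve as a check of genotype at these levels. Its transcript was at 6.12, 9.95 and 5.38 CPM in WT replicates 1, 2 and 3 and at 3.98, 2.70 and 7.19 CPM in the KO replicates. The groups overlapped, and the log2 fold change of -0.63 (SE 0.409) did not pass the test (edgeR adjusted p = 0.407). In M0 it did, at -1.34 (edgeR adjusted p = 0.0102). The libraries count 3′ ends, so a deletion elsewhere in the gene need not remove this signal. The p53 targets named as genotype markers separated the libraries instead.

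Cdkn1a encodes p21, the inhibitor of cyclin-dependent kinases through which p53 arrests the cell cycle. It was at 1115, 777 and 803 CPM in WT and at 55.5, 93.3 and 142 CPM in KO. Every KO library was far below every WT library, and the log2 fold change was -3.21 (SE 0.296, edgeR adjusted p = 5.66e-08). Ccng1, which encodes cyclin G1, was at 167, 113 and 94.0 CPM in WT and at 37.9, 36.3 and 37.0 CPM in KO. The KO libraries were nearly equal and all below WT, a log2 fold change of -1.75 with SE 0.230 (edgeR adjusted p = 1.66e-05). Phlda3, an inhibitor of Akt, had 264 counts in WT, at 36.2, 22.9 and 18.4 CPM, and 1 count in KO, in replicate 3. The ratio of WT to KO was 321, with a 95% counting interval of 57.1 to 12725 (edgeR adjusted p = 6.87e-09). None of the 3 markers lost its call when any of the 6 libraries was left out.

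Promoters of the targets that fell are shown because p53 recognizes DNA by sequence. RefSeq promoters (GRCm38.p6, 250 bases before to 50 bases after the start, plus or minus strand of the gene) were searched on both strands for the p53 half-site consensus and for pairs of half-sites at most 13 bases apart. A pair was found in 24 of 32851 promoters (0.0731%), that of Cdkn1a among them, from position -73 to -42 relative to the start. Single half-sites are shown for 4 further targets, beginning at position -185 in Ccng1, -186 in Mdm2, -81 in Inka2 and 11 in Aen. Capitals mark the match, the first of each promoter, and the sequences read 5′ to 3′ on the gene's strand.
Cdkn1a, chr17:29090881-29090962, plus strand: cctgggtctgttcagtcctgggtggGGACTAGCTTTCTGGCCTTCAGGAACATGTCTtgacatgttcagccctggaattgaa
Ccng1, chr11:40755437-40755496, minus strand: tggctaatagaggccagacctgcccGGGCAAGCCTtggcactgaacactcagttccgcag
Mdm2, chr10:117710910-117710969, minus strand: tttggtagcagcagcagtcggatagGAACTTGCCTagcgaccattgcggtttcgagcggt
Inka2, chr3:105705367-105705396, plus strand: ctgtctgcccGGGCTTGTCTgccagcaggg
Aen, chr7:78895927-78895956, plus strand: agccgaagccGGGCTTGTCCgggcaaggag
A half-site occurred in the promoters of 5 of the 14 called targets with a promoter entry (35.7%), of 9 of the 21 targets that were tested and not called (42.9%), and of 9.55% of all genes in the table. A match is a description of the letters in these windows, and the data do not measure binding there.

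Among 48 listed p53 targets, 44 could be tested, 18 of which fell and none of which rose in KO (2.34% and 1.21% of all genes tested). With total counts as the scaling, 15 fell and Fbxw7 rose. In the fit to the 6 libraries alone, 4 of the 7 called genes were on this list. With TMM the median log2 fold change was -0.76, against 0.01 over all genes tested, and 37 of the 44 estimates were below 0. In 22 of the 44 genes all 3 KO libraries lay below all 3 WT libraries, against 9.27% of all genes tested. Summed over the list, WT libraries held 5428, 3714 and 3712 CPM and KO libraries 2130, 2079 and 1943 CPM. The KO libraries were close to one another and did not overlap WT, KO replicate 1 included.

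Of 11 targets that act in arrest or the stress response, 6 fell: Cdkn1a, Ccng1, Trp53inp1, Ptp4a3, Psrc1 and Sesn2. Trp53inp1, a stress protein that acts in p53 signalling and autophagy, was at 31.7, 35.0 and 40.8 CPM in WT and at 11.9, 5.63 and 4.96 CPM in KO. All KO libraries were below WT, replicate 1 the least so (log2 fold change -2.26 with SE 0.474, edgeR adjusted p = 0.00687). Ptp4a3, a phosphatase of the PRL family, fell by 1.32 on the log2 scale (edgeR adjusted p = 0.00763). Psrc1, a microtubule-associated protein, fell by 2.45 from a low level (edgeR adjusted p = 0.0142). Sesn2, a sestrin that restrains mTORC1, was between 10.4 and 12.8 CPM in WT, against 2.39 to 7.88 CPM in KO (log2 fold change -0.97, edgeR adjusted p = 0.0443).

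Of 6 feedback regulators, Mdm2 and Zmat3 fell. Mdm2 was at 444, 176 and 156 CPM in WT and at 52.8, 67.6 and 72.2 CPM in KO. WT replicate 1 was the highest library, and the KO libraries were below the lowest WT library (log2 fold change -2.01 with SE 0.281, edgeR adjusted p = 7.00e-05). Zmat3, an RNA-binding zinc-finger protein, was at 45.9, 42.8 and 56.7 CPM in WT and at 9.82, 9.46 and 7.69 CPM in KO. The replicates of each genotype were close together (log2 fold change -2.43 with SE 0.268, edgeR adjusted p = 5.99e-07). Ppm1d, which encodes the phosphatase Wip1, did not pass the test (log2 fold change -0.18, edgeR adjusted p = 0.786), nor did Fbxw7, a subunit of a ubiquitin ligase, at 0.65 (edgeR adjusted p = 0.0790).

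Of 11 tested targets of the apoptosis group, 4 fell: Phlda3, Bbc3, Aen and Tnfrsf10b. Bbc3 encodes Puma, a BH3-only activator of apoptosis. It was at 32.0, 42.5 and 50.7 CPM in WT and at 18.8, 13.7 and 14.1 CPM in KO, without overlap (log2 fold change -1.42 with SE 0.239, edgeR adjusted p = 0.000534). Aen, an apoptosis-enhancing nuclease, was between 37.3 and 38.6 CPM in WT, against 15.4 to 21.6 CPM in KO (edgeR adjusted p = 0.0229). Tnfrsf10b, the mouse death receptor for TRAIL, fell by 1.91 on the log2 scale (edgeR adjusted p = 0.0319), although 25% of the short stretches of its 3′ end recur in other genes, which makes its counts less certain. Bax (-0.72, edgeR adjusted p = 0.161), Fas (-0.30, edgeR adjusted p = 0.687) and Pmaip1 (0.19, edgeR adjusted p = 0.899) did not pass. Eda2r, a death-domain receptor, had 13 counts in WT, 12 of them in replicate 2, and 0 in KO, and was too low to be tested.

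Of 12 targets in metabolism and other roles, 6 fell. Ak1, adenylate kinase 1, was at 45.9, 29.3 and 25 CPM in WT and at 1.33, 4.96 and 7.69 CPM in KO (log2 fold change -2.82 with SE 0.417, edgeR adjusted p = 0.000106). Ephx1, microsomal epoxide hydrolase, was at 33.9, 68.8 and 69.7 CPM in WT and at 13.3, 9.01 and 5.70 CPM in KO (log2 fold change -2.62 with SE 0.432, edgeR adjusted p = 0.000540). Neither gene overlapped between genotypes. Inka2, an inhibitor of the kinase Pak4, had 62 counts in WT and 0 in KO, which is at least 25.1-fold lower when the KO group is set to a floor of 3 counts. Dcxr, a carbonyl reductase, fell by 1.71 (edgeR adjusted p = 4.14e-05), Dglucy by 0.97 (edgeR adjusted p = 0.0142) and the glutathione peroxidase Gpx1 by 0.74 (edgeR adjusted p = 0.0124). The value of Dglucy is uncertain, since its counts may include reads of an overlapping annotation. The 4 tested DNA repair targets, Ercc5, Polk, Rrm2b and Xpc, ranged from -0.79 to 0.37 and none passed.

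**Figure D1:**
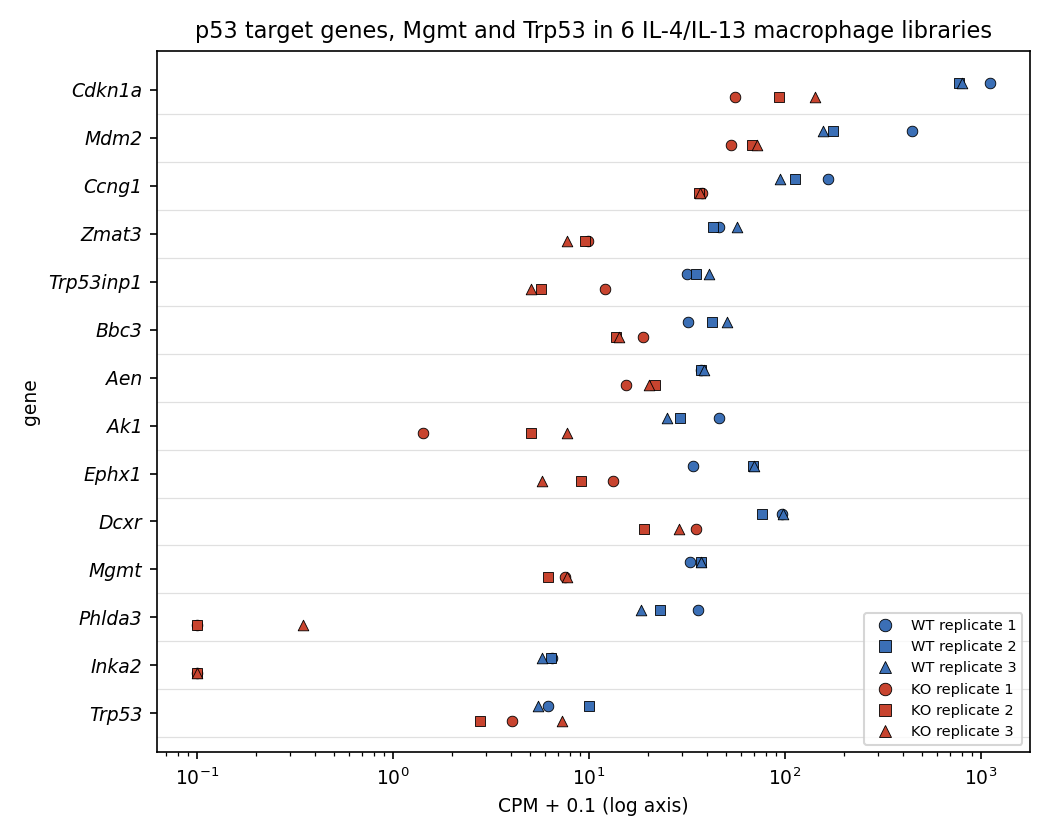
CPM plus 0.1 (log axis) of 14 genes, Trp53, Mgmt and p53 targets, in each M2 vehicle library, WT in blue and KO in red, marker shapes for replicates 1 to 3. The KO points lie below the WT points for every gene shown that was called, and the Trp53 points overlap.

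In 7 of the 18 called targets the call was lost when some library was left out: Trp53inp1, Psrc1, Sesn2, Aen, Tnfrsf10b, Gpx1 and Dglucy, with edgeR adjusted p-values up to 0.159. Without WT replicate 1 these were Sesn2, Aen, Tnfrsf10b, Gpx1 and Dglucy, without WT replicate 2 Sesn2, and without WT replicate 3 Psrc1, Sesn2 and Aen. Without KO replicate 1 they were Sesn2, Aen, Tnfrsf10b and Dglucy, without KO replicate 2 Trp53inp1, Psrc1, Aen, Tnfrsf10b and Dglucy, and without KO replicate 3 Trp53inp1, Psrc1, Sesn2, Aen and Gpx1. The other 11 kept it in all 6 fits. Mgmt, which encodes the repair enzyme for O6-methylguanine and was not on the list, behaved as uniformly. It was at 32.8, 37.1 and 37.4 CPM in WT and at 7.43, 6.08 and 7.69 CPM in KO (log2 fold change -2.34 with SE 0.307, edgeR adjusted p = 1.66e-05). The groups were well apart, with little spread in either.

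The strength of these differences depended on the polarization for a few targets. Mdm2 differed between genotypes by -1.89 on the log2 scale in M0 and by -2.05 in M2 with AP-3-84, but by 0.14 in M1, where KO libraries held 213, 173 and 213 CPM. The difference between the M2 and M1 genotype effects was -2.15 (edgeR adjusted p = 0.00232). Cdkn1a fell by 4.58 in M0 and by 1.54 in M1 on that scale. Its effect in M2 differed from both, by 1.37 from M0 (edgeR adjusted p = 0.0111) and by -1.68 from M1 (edgeR adjusted p = 0.0195). Over all genes, the M2 effect was called higher than the M0 effect for 13.9% and lower for 13.2%, and higher than the M1 effect for 1.04% and lower for 1.83%. Gdf15, a stress cytokine, Plk2, a polo-like kinase, and Gadd45b, a stress sensor, did not pass in M2 (-0.75, -0.40 and 0.20) but were higher in KO in M1 by 2.99, 3.64 and 3.27 (edgeR adjusted p = 5.03e-07, 3.52e-08 and 4.38e-11). Over the list, 25 targets were called lower in M2 with AP-3-84 (median -1.22), 24 in M0 (median -1.05) and 11 in M1 (median -0.50), while 0, 1 and 3 were called higher. Of all genes tested, 5.47%, 16.8% and 5.71% were called lower and 6.02%, 16.4% and 5.93% higher in those comparisons, or 11.5%, 33.2% and 11.6% in either direction.

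NRF2 is the transcription factor that induces glutathione and thioredoxin enzymes, NADPH-producing enzymes and heme oxygenase, and p21 is known to stabilize it. Of 20 listed NRF2 targets, 13 fell and none rose in KO (2.34% of all genes tested were lower and 1.21% higher). The median log2 fold change was -0.91, 19 of 20 estimates were below 0, and in 15 genes all KO libraries lay below WT, against 9.27% of all genes tested. Summed over the list, WT libraries held 73866, 53876 and 55688 CPM and KO libraries 38241, 35783 and 32162 CPM, so KO replicate 1 sided with the other KO libraries here.

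Prdx1, a peroxiredoxin that reduces hydrogen peroxide, was at 12716, 4869 and 3782 CPM in WT and at 2295, 1896 and 1914 CPM in KO. WT replicate 1 was far above the other WT libraries, which were in turn above KO (log2 fold change -1.81 with SE 0.279, edgeR adjusted p = 0.000272). Of the short stretches of its 3′ end, 24.3% recur in pseudogenes, so part of its counts may be shared. Hmox1, heme oxygenase 1, was at 316, 114 and 135 CPM in WT and at 44.6, 65.8 and 68.2 CPM in KO, without overlap (log2 fold change -1.66 with SE 0.312, edgeR adjusted p = 0.00286). Gsta3, a glutathione S-transferase, was at 56.5, 16.9 and 9.50 CPM in WT and at 1.86, 4.05 and 3.22 CPM in KO (log2 fold change -3.16 with SE 0.570, edgeR adjusted p = 0.00186). All WT libraries exceeded all KO libraries, replicate 1 by most.

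Srxn1, sulfiredoxin, was between 290.4 and 483 CPM in WT, against 115 to 166 CPM in KO (log2 fold change -1.46, edgeR adjusted p = 0.00673). Gclm, the modifier subunit of glutamate-cysteine ligase, was between 151 and 249 CPM in WT, against 76.9 to 90.3 CPM in KO (log2 fold change -1.30, edgeR adjusted p = 0.00960). Pgd, of the pentose phosphate pathway, fell by 0.77 (edgeR adjusted p = 0.00702). The remaining 7 called genes fell by 0.66 to 1.82: the ferritin chains Fth1 and Ftl1, Taldo1, Txnrd1, Cat, Slc7a11 and Nqo1 (edgeR adjusted p from 0.0119 to 0.0432). The calls of Pgd, Srxn1 and Gclm were lost without KO replicate 3 (edgeR adjusted p from 0.0605 to 0.0801), and that of Srxn1 also without KO replicate 2, while those of Prdx1, Hmox1 and Gsta3 held without each library. The list's count was 8 without WT replicate 1, 7 without KO replicate 2 and 3 without KO replicate 3, with the median between -0.80 and -0.87 in those fits. Gsr, glutathione reductase, was at 0.06 (edgeR adjusted p = 0.971).

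Of other genes of heme handling, 2 that fell with Hmox1 were chosen after their values were seen. No list of heme genes was tested, so the share of them that fell is not known. Slc48a1, which transports heme out of the phagolysosome, was at 1823, 1151 and 1408 CPM in WT and at 689, 558 and 407 CPM in KO. Blvrb, a biliverdin reductase, was at 591, 614 and 564 CPM in WT and at 424, 237 and 229 CPM in KO. Neither gene overlapped between genotypes, and both kept their calls without each library (log2 fold changes -1.41 and -0.99, edgeR adjusted p = 7.00e-05 and 0.000328). Since both were chosen with their values seen, this is no separate support for them.

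Ltc4s, leukotriene C4 synthase, was among the largest falls. It was at 36.5, 22.3 and 28.5 CPM in WT and at 2.39, 4.28 and 3.22 CPM in KO. The groups lay far apart (log2 fold change -3.12 with SE 0.532, edgeR adjusted p = 0.000675). Ggt5, the gamma-glutamyltransferase that converts leukotriene C4 to D4, was chosen after its values were seen. It was at 5.57, 8.44 and 19.9 CPM in WT and at 1.06, 0.901 and 0.496 CPM in KO (log2 fold change -3.73 with SE 0.616, edgeR adjusted p = 0.000432). Both calls held without each library. No list of leukotriene genes was tested, so the share of them that fell is not known. In M0 cells the genotypes stood in the opposite order for Ltc4s, between 3.14 and 4.86 CPM in WT, against 11.8 to 17.6 CPM in KO, a difference of 1.89 on the log2 scale (edgeR adjusted p = 0.00595). For Ltc4s the M2 effect differed from the M0 effect by -5.01 (edgeR adjusted p = 1.49e-05).

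Of 31 tested genes of a list of NF-κB targets and cytokines, 9 fell, none rose and 22 did not pass (2.34% of all genes tested were lower and 1.21% higher). The median log2 fold change was -0.60, and 27 estimates were below 0. Summed CPM of the list were 11491, 4080.1 and 3069 in WT and 2315, 2260.2 and 2975 in KO. WT replicate 1 held several times as much as any other library, and KO replicate 3 was close to WT replicate 3.

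Tnf, the central inflammatory cytokine, was at 291, 199.6 and 108 CPM in WT and at 51.5, 40.8 and 60.8 CPM in KO, without overlap (log2 fold change -1.97 with SE 0.398, edgeR adjusted p = 0.00595). Nfkbia, the inhibitor of NF-κB that NF-κB itself induces, was between 1056 and 1436 CPM in WT, against 629 to 645 CPM in KO (log2 fold change -0.96, edgeR adjusted p = 0.0204). Icam1, an adhesion molecule, was at 174, 243 and 193 CPM in WT and at 115, 83.6 and 72.2 CPM in KO (log2 fold change -1.17, edgeR adjusted p = 0.0148). In these genes WT replicates 2 and 3 also exceeded KO. Nfkb2, an NF-κB subunit that overlaps Psd on the opposite strand, fell by 0.98 (edgeR adjusted p = 0.0214).

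The others called on the list were Ier3, an early response gene (-0.60, edgeR adjusted p = 0.0308), Il12b, the p40 subunit of IL-12 (-2.45, edgeR adjusted p = 0.0276), and Saa3, Il1a and Clec4e, which were high in WT replicate 1 above all. Il12b was low, at 0.950 to 16.6 CPM in WT and 0.496 to 2.48 CPM in KO, with overlap. Saa3, an acute-phase protein, was at 3421, 201 and 174 CPM in WT and at 71.4, 64.6 and 176 CPM in KO, with overlap (log2 fold change -3.61, edgeR adjusted p = 0.0275).

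Clec4e, Il1a and, from outside the list, Mmp9, Slpi, Cxcl1 and Ptges shared that pattern of WT replicate 1. Clec4e, the C-type lectin Mincle, was at 811, 178 and 82.3 CPM in WT and at 63.9, 67.6 and 54.8 CPM in KO (log2 fold change -2.52, edgeR adjusted p = 0.0142). Mmp9, a gelatinase, was at 613, 41.3 and 15.5 CPM in WT and at 9.02, 4.73 and 24.1 CPM in KO, with overlap (log2 fold change -4.15, edgeR adjusted p = 0.0136). Slpi, a secreted antiprotease, was at 549.8, 38 and 23.7 CPM in WT, against 12.6 to 22.0 CPM in KO (log2 fold change -3.46, edgeR adjusted p = 0.0136). WT replicate 1 also led in Il1a (68.2, 7.54 and 1.90 CPM in WT), in the neutrophil chemokine Cxcl1 (67.6, 16.3 and 4.12 CPM) and in Ptges, prostaglandin E synthase (69.0, 6.94 and 6.02 CPM), whose KO levels were 1.59 to 2.48, 2.93 to 7.19 and 2.23 to 4.51 CPM. Their log2 fold changes were -3.55, -2.62 and -3.15 (edgeR adjusted p = 0.0148, 0.0220 and 0.0115).

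Of Tnf, Nfkbia, Icam1, Nfkb2, Clec4e, Mmp9, Slpi, Il1a, Cxcl1 and Ptges, 10 in all, 0 kept the call in all 6 fits that left out a library. Without WT replicate 1, 7 of these were not called (edgeR adjusted p from 0.0785 to 0.437), without KO replicate 2, 9 (0.0503 to 0.121), without KO replicate 3, 8 (0.0658 to 0.164), and without WT replicate 3, Nfkb2. Tnf lost its call only without KO replicate 2. The list's count was 3 without WT replicate 1, 0 without KO replicate 2 and 1 without KO replicate 3, and its median without WT replicate 1 was -0.29. Neutrophil markers were not called themselves, but their summed CPM were 4314 in WT replicate 1 and 3456 in KO replicate 3, against 431 to 741 in the other libraries. S100a8 accounted for 2310.1 and 1596 CPM of those sums and S100a9 for 1402 and 1419 CPM. The part of the neutrophil transcripts in the inflammatory differences was not tested.

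Of 16 tested scavenger receptors and lectins, 4 fell, against 2.34% of all genes tested: Clec4d, Olr1, Marco and Cd163. Marco, a scavenger receptor of particles and bacteria, was at 1089, 130.3 and 83.6 CPM in WT and at 85.4, 46.4 and 98.5 CPM in KO, with overlap (log2 fold change -2.50, edgeR adjusted p = 0.0344). Clec4d, a C-type lectin that pairs with Mincle, was between 643 and 1314 CPM in WT, against 316 to 513 CPM in KO (log2 fold change -1.01, edgeR adjusted p = 0.0197). Olr1, a receptor for oxidized LDL, fell by 2.19 (edgeR adjusted p = 0.0293). Cd163, the haptoglobin-hemoglobin receptor, had 36 counts in WT and 3 in KO, a ratio of 14.6 with a 95% counting interval of 4.61 to 74.1 (edgeR adjusted p = 0.0427). None of the 4 was called without WT replicate 1, with edgeR adjusted p from 0.173 to 0.629, nor without KO replicate 3, from 0.0730 to 0.168. Without KO replicate 2, Clec4d alone was called, and without KO replicate 1 all but Clec4d were.

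Comparisons of the inflammatory list in other states did not give a single direction. In M2 with AP-3-84, which shares no library with the vehicle comparison, 8 inflammatory genes were higher and 0 lower in KO (median 0.90). In M0, 18 were lower and 0 higher, and in M1, 8 were higher and 0 lower. The shares of all genes tested were 6.02% higher with AP-3-84, 16.8% lower in M0 and 5.93% higher in M1. For Tnf the KO effect was -3.72 in M0, -1.97 in M2, 0.84 in M2 with AP-3-84 and 0.04 in M1. The M2 effect on Tnf differed from that in M0 by 1.75 (edgeR adjusted p = 0.0244) and from that in M1 by -2.01 (edgeR adjusted p = 0.0426). The difference between vehicle and AP-3-84 in the genotype effect was not tested.

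**Figure D2:**
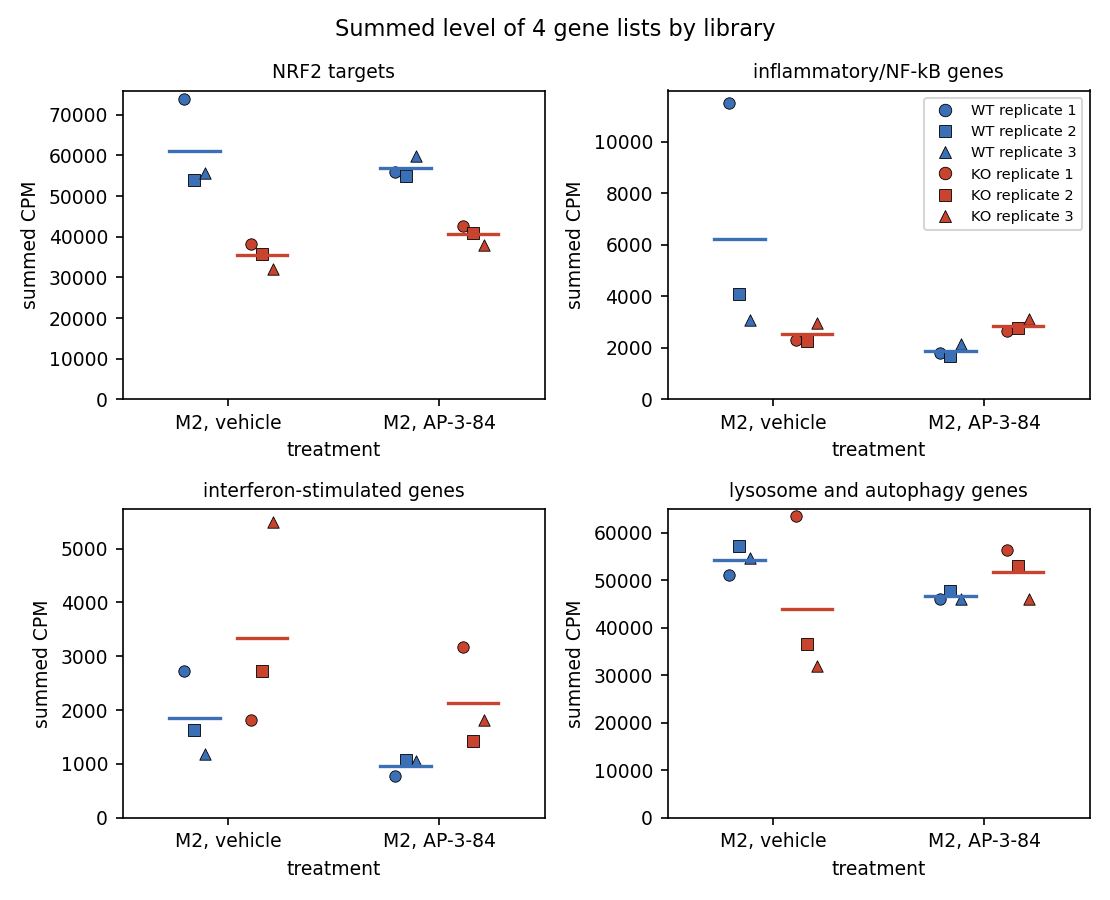
Summed CPM of the NRF2, inflammatory, interferon-stimulated and lysosomal lists in each M2 library, in vehicle and with AP-3-84, WT in blue and KO in red. NRF2 sums are lower in every KO library, whereas WT replicate 1 leads the inflammatory list and KO replicate 1 the lysosomal list in vehicle.

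Of 24 listed lysosomal genes, 5 fell and none rose (2.34% of all genes tested were lower and 1.21% higher). All 24 estimates were below 0 with TMM scaling (median -0.35), whereas 4 of the 24 were above 0 with total counts. Summed CPM were 51170, 57333 and 54660 in WT and 63472, 36712 and 31889 in KO. KO replicate 1 had the highest sum of all, and the other KO libraries were below WT. The count was 8 without KO replicate 1 and 2 without KO replicate 2 or KO replicate 3. Ctsd, the aspartic protease cathepsin D, was low in KO replicate 1 too, at 9122, 8144 and 11867 CPM in WT and at 4943, 3830.2 and 3379 CPM in KO. All KO libraries were below WT, and the call held without each library (log2 fold change -1.26 with SE 0.196, edgeR adjusted p = 0.000214).

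Glb1, lysosomal beta-galactosidase, was at 100.5, 94.4 and 125 CPM in WT and at 74.8, 48.7 and 50.3 CPM in KO (log2 fold change -0.88, edgeR adjusted p = 0.00393), and its call also held without each library. Sqstm1, the autophagy receptor p62 and a target of NRF2, was at 1382, 795 and 774 CPM in WT and at 556, 567 and 568 CPM in KO (log2 fold change -0.80, edgeR adjusted p = 0.0138). Gabarapl1, of the Atg8 family, and Tfe3, a transcription factor of lysosomal genes, fell by 0.97 and 0.54 (edgeR adjusted p = 0.0278 and 0.0348). Sqstm1, Gabarapl1 and Tfe3 lost their calls without KO replicate 2 and without KO replicate 3 (edgeR adjusted p from 0.0589 to 0.224), Sqstm1 also without WT replicate 1 and the others without WT replicate 3. In M0 the lysosomal list stood the other way, with 13 genes called higher in KO (16.4% of all genes tested) and 3 lower, a share near the 16.8% of all genes. Ctsd rose there by 0.75, and its M2 effect differed from the M0 effect by -2.01 (edgeR adjusted p = 4.76e-06).

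Of 15 macrophage identity genes, Lyz2 and Tyrobp fell (2.34% of all genes tested were lower). Lyz2, lysozyme M, was at 24381, 20317 and 24818 CPM in WT and at 13941, 5626 and 3091 CPM in KO, without overlap (log2 fold change -1.62 with SE 0.349, edgeR adjusted p = 0.00960). Its 3′ end shares 33.6% of short stretches with Lyz1. Tyrobp, the adaptor DAP12 of myeloid receptors, was at 899, 1130.3 and 1308 CPM in WT and at 928, 480.2 and 505 CPM in KO (log2 fold change -0.80, edgeR adjusted p = 0.0138). KO replicate 1 lay within the WT range of Tyrobp. Both calls were lost without KO replicate 2 and without KO replicate 3, and that of Tyrobp without WT replicate 3. Laptm5, a lysosomal membrane protein of blood cells chosen after its values were seen, was at 1294, 1603 and 2083 CPM in WT and at 767, 615 and 550 CPM in KO (log2 fold change -1.37 with SE 0.165, edgeR adjusted p = 3.40e-06), and its call held without each library.

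Of 70 listed genes of DNA replication and mitosis, 9 rose and none fell (1.21% of all genes tested were higher), 3 of 33 of S phase (Pola1, Mcm10 and Cdc45) and 6 of 37 of G2 and M phase (Aurkb, Bub1, Cenpe, Knl1, Hmmr and Ndc80). Of the 70 estimates, 69 were above 0, in 16 genes all KO libraries lay above WT (9.14% of all genes tested), and the median log2 fold change was 0.88. Summed CPM were 2577, 3196 and 3744 in WT and 3074, 6911 and 6969 in KO. KO replicates 2 and 3 were above every WT library, and KO replicate 1 lay inside the WT range.

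Bub1, a kinase of the spindle checkpoint, was at 4.73, 6.03 and 5.70 CPM in WT and at 11.1, 20.9 and 21.3 CPM in KO (log2 fold change 1.70 with SE 0.372, edgeR adjusted p = 0.00814). Cenpe, a kinetochore motor, was at 45.6, 51.3 and 72.8 CPM in WT and at 77.7, 171 and 176 CPM in KO (log2 fold change 1.33 with SE 0.316, edgeR adjusted p = 0.0163). In both genes KO replicate 1 was the lowest KO library and still above WT. Pola1, the catalytic subunit of DNA polymerase alpha, was at 13.9, 14.8 and 17.7 CPM in WT and at 21, 52.0 and 48.6 CPM in KO (log2 fold change 1.39 with SE 0.311, edgeR adjusted p = 0.00972). Aurkb, the Aurora B kinase, rose by 1.91 (edgeR adjusted p = 0.0195), and Knl1, a kinetochore scaffold, by 1.38 (edgeR adjusted p = 0.0170). Hmmr and Ndc80, of the spindle and the kinetochore, rose by 1.46 and 1.34 (edgeR adjusted p = 0.0281 and 0.0293). Mcm10 and Cdc45, of the replication fork, rose by 1.41 and 1.54 (edgeR adjusted p = 0.0471 and 0.0497), and in both KO replicate 1 lay within the WT range.

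Further cell division genes were among the largest rises: Cenpq and Cenpk of the inner kinetochore (1.93 and 1.74), Cep55 of the midbody (1.78), Blm, the Bloom helicase (1.73), and Fignl1 of recombination repair (1.76), with edgeR adjusted p from 0.0119 to 0.0394. Ect2, a regulator of cytokinesis, rose by 1.31 (edgeR adjusted p = 0.0265). Cenpq, Cenpk and Cdc45 overlap other genes on the opposite strand (Mut, Ppwd1 and Ufd1). All 15 of these named genes of cell division lost their calls without KO replicate 2, and all 15 without KO replicate 3 (edgeR adjusted p from 0.0503 to 0.321). The list's count was 0 in each of those fits, 2 without WT replicate 1, 4 without WT replicate 2 and 6 without WT replicate 3, but 35 without KO replicate 1. Its median stayed between 0.71 and 1.19 over these 6 fits. With DESeq2 21 genes of the list rose, with total counts 23 and with no filter on low counts 54.

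Promoters of mitotic genes are known for the cell cycle genes homology region, a short element through which they are repressed outside the cycle. The letters TTTGAA, on either strand (TTTGAA or TTCAAA), occurred in the promoters of 24 of the 32 G2 and M phase genes with an entry (75%), against 20.2% of all genes in the promoter table and 11.1% of the S phase genes. Among all genes called higher in KO the share was 25.2%, and among those called lower 13%. The matches of 3 genes that rose are shown with capitals at the element, each within the first bases of the transcript.
Hmmr, chr11:40733412-40733441, minus strand: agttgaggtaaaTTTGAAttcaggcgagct
Knl1, chr2:119047138-119047167, plus strand: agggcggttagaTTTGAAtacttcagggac
Ndc80, chr17:71526811-71526840, minus strand: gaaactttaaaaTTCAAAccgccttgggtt
These letters describe the window only. Binding was not measured.

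The same genes stood the opposite way in M0 cells. There 67 of the 70 were lower (16.8% of all genes tested) and 0 higher in KO, with a median log2 fold change of -2.82 and summed CPM of 5921 to 6267 in WT and 965 to 1114 in KO. The M2 effect differed from the M0 effect for 68 of the 70 genes, all 68 in the direction of higher M2 values, against 27.1% of all genes tested. In M0, Bub1 lay between 20.9 and 24.0 CPM in WT, against 1.31 to 2.15 CPM in KO, and the 2 effects differed by 5.41 (edgeR adjusted p = 3.37e-07). In M1, 12 of the 70 were higher (5.93% of all genes) and 0 lower in KO. In M2 with AP-3-84, 0 were higher and 5 lower (5.47% of all genes).

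**Figure D3:**
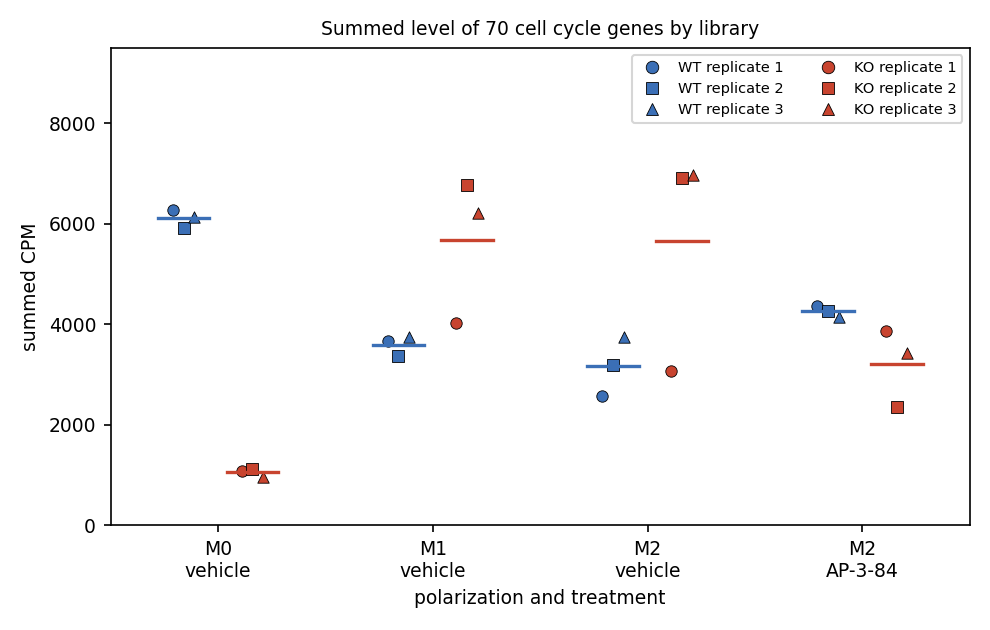
Summed CPM of 70 S, G2 and M phase genes in each vehicle library of M0, M1 and M2 and in M2 with AP-3-84, WT in blue and KO in red, lines for means. KO lies far below WT in M0, whereas KO replicates 2 and 3 lie above WT in M2 vehicle and KO replicate 1 among WT.

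Of 50 listed interferon-stimulated genes, 5 rose and none fell (1.21% of all genes tested were higher), 49 estimates were above 0, and the median log2 fold change was 1.06. Summed CPM were 2733, 1631 and 1193 in WT and 1810, 2723 and 5499.7 in KO. The groups overlapped, KO replicate 3 being the highest library and WT replicate 1 close to KO replicate 2. Xaf1, an interferon-induced antagonist of the apoptosis inhibitor Xiap, was at 16.4, 12.4 and 8.23 CPM in WT and at 34.8, 48.9 and 124 CPM in KO. All KO libraries were above WT, and the call held without each library (log2 fold change 2.47 with SE 0.369, edgeR adjusted p = 0.000204). Xaf1 lies on the chromosome of Trp53 (chr11:72301629-72313733), outside the 2 Mb examined around it, and the part of this position was not tested.

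Ifi204, a DNA sensor of the p200 family, was at 31.0 to 53.4 CPM in WT and at 57.0, 68.7 and 151 CPM in KO (log2 fold change 1.14, edgeR adjusted p = 0.0190). Ifi213, of the same family, had 2 counts in WT and 111 in KO, a ratio of 45.6 with a 95% counting interval of 12.3 to 382 (edgeR adjusted p = 0.00588). Ifi206, another member that was not on the list, was at 0 to 3.62 CPM in WT and at 4.78, 9.46 and 48.9 CPM in KO (log2 fold change 3.63, edgeR adjusted p = 0.0185). Ms4a4c and Slfn8 rose by 2.75 and 1.32 (edgeR adjusted p = 0.0218 and 0.0348). Ifi206, Ifi213, Ms4a4c and Slfn8 share 21.8% to 38.7% of the short stretches of their 3′ ends with relatives, so the split of counts between them is uncertain. All of these but Xaf1 lost their calls without KO replicate 3 (edgeR adjusted p from 0.0819 to 0.336). The list's count without KO replicate 3 was 1 and its median 0.35; without WT replicate 1 they were 9 and 1.70, and without KO replicate 1 17 and 1.45. Without WT replicate 2 or WT replicate 3 the count was 2, and with DESeq2 and with no filter on low counts it was 9 and 32. In M2 with AP-3-84, 15 were higher (6.02% of all genes tested) and 0 lower in KO, with Xaf1 at 2.66 (edgeR adjusted p = 5.40e-05). In M0, 2 of the 50 were higher and 1 lower in KO (median -0.11), against 16.4% and 16.8% of all genes tested. In M1, 2 were higher and 0 lower (median 0.17), against 5.93% and 5.71% of all genes.

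**Figure D4:**
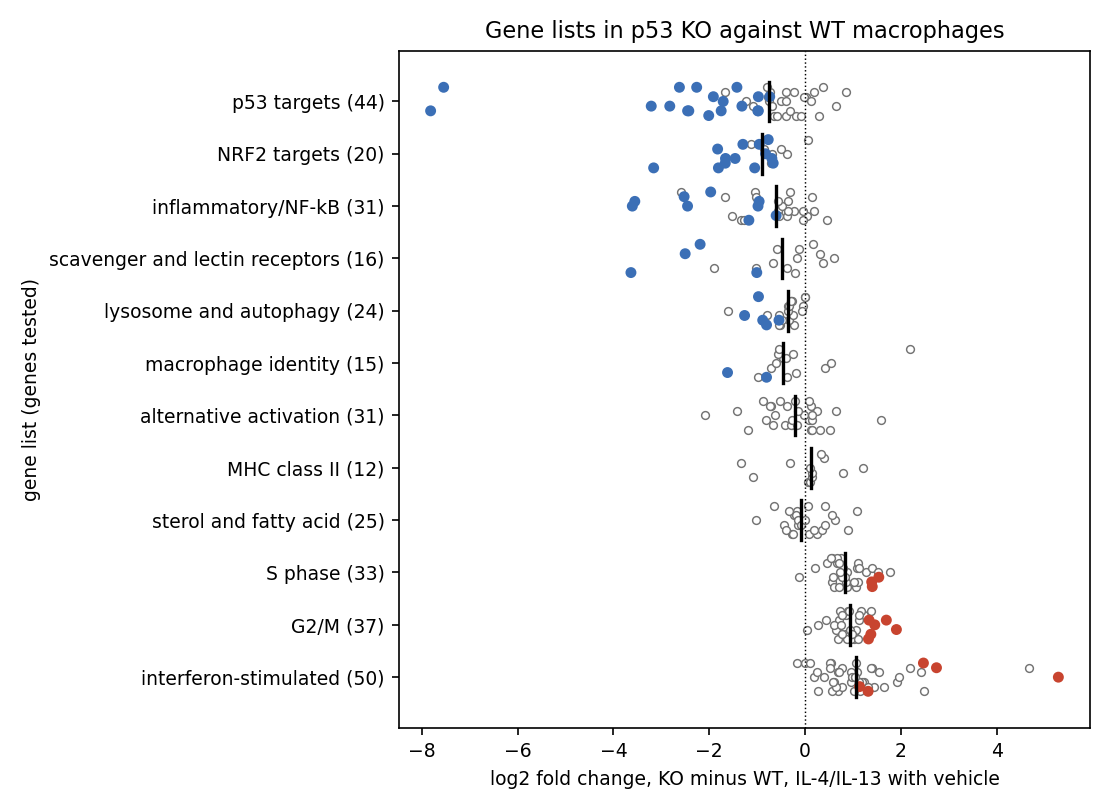
Log2 fold change (KO over WT, M2 vehicle) of every tested gene in 12 lists, filled points for called genes and a line at each list's median. The p53 and NRF2 lists hold most of the called falls, and the cell cycle and interferon lists lie to the right of 0 with few called genes.

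None of 31 tested genes of alternative activation was called with all 6 libraries, and the median log2 fold change was -0.21. Retnla, the secreted protein Fizz1, was at 456, 4299 and 2661 CPM in WT and at 5858, 455 and 406 CPM in KO, so that each genotype held both high and low libraries (log2 fold change -0.14 with SE 0.782, edgeR adjusted p = 0.951). Chil3, the chitinase-like Ym1, was between 2338 and 6183 CPM in WT, against 1380.5 to 4119.6 CPM in KO (log2 fold change -0.66, edgeR adjusted p = 0.539), and 30.8% of the short stretches of its 3′ end recur in Chil4 and a pseudogene. Without KO replicate 1, Retnla was called lower (log2 fold change -2.52, edgeR adjusted p = 0.0369), and 1 gene of the list was called higher and 2 lower. A p above the threshold does not show that the levels were equal.

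Several other groups had no called member with all 6 libraries. Of 12 tested genes of MHC class II, H2-Aa was at 144, 1037 and 833 CPM in WT and at 1833, 517 and 313 CPM in KO (log2 fold change 0.40, edgeR adjusted p = 0.801), and the cathepsin Ctss, a protease of antigen processing, was at 3036, 4718 and 4477 CPM in WT and at 5720.1, 2289 and 1808 CPM in KO (-0.32, edgeR adjusted p = 0.512). In both genes KO replicate 1 was the highest library. Without it Ctss was called lower (-0.99, edgeR adjusted p = 0.00125). None of 25 genes of sterol and fatty acid synthesis was called, Hmgcs1 at -0.15 (edgeR adjusted p = 0.863), and none of 19 lipid-handling genes, Lgals3 and Gpnmb at -0.40 and -0.49 (edgeR adjusted p = 0.539 and 0.592). Of 10 complement genes none was called, C1qb and C3ar1 at -0.44 and -0.02 (edgeR adjusted p = 0.428 and 0.978). Of 14 genes of the BCL2 family none was called, Mcl1 and Bcl2a1b at -0.41 and -0.40 (edgeR adjusted p = 0.103 and 0.319), the latter with 94.8% of its 3′ stretches in near-identical copies. Without KO replicate 1, Mcl1 was called lower (-0.59, edgeR adjusted p = 0.0141). In that fit 5 genes of sterol and fatty acid synthesis, 3 of lipid handling and 1 each of the MHC class II, complement and BCL2 lists were called lower.

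A few lists had 1 or 2 called members (of all genes tested, 1.21% were higher and 2.34% lower). Among 28 chemokine and receptor genes, Cxcl1 fell. Of 19 genes of the integrated stress response, Phgdh, the first enzyme of serine synthesis, rose by 1.95 (edgeR adjusted p = 0.0293) and Vldlr, a lipoprotein receptor, fell by 2.54 from a few CPM (edgeR adjusted p = 0.0452). Phgdh shares 53.4% of its 3′ stretches with pseudogenes. Of 25 genes of glycolysis and hypoxia, P4ha1, a collagen prolyl hydroxylase, fell by 0.92 (edgeR adjusted p = 0.0467). Of 20 matrix genes, Mmp9 was the called one. Phgdh, Vldlr and P4ha1 each lost their call without at least 1 library.

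Markers of other cell types were low, apart from those of neutrophils. Summed CPM over B cell markers were 5.86 to 14.9, over T and NK cell markers 0.796 to 1.27, over mast cell, basophil and eosinophil markers 0.796 to 5.70, over dendritic cell markers 1.74 to 12.7 and over erythroid and megakaryocyte markers 0 to 1.39. Of these 5 lists, 3, 5, 3, 1 and 4 genes had 0 counts in all 6 libraries. None of their tested members was called. Ighm and Cd79b stood at log2 fold changes of -0.24 and 1.38, Cd4 at -2.23 from 9 counts in WT and 2 in KO, Prg2 at 0.71, and Zbtb46 and Ccr7 at -1.29 and 0.25. Stromal markers summed to 35.9 to 55.8 CPM in WT and 48.0 to 78.9 CPM in KO, with Col1a1 and Col1a2 at 0.18 and 0.75. Progenitor markers summed to 14.5 to 24.1 CPM in WT and to 5.04, 44.1 and 44.9 CPM in KO. Among them Mpo, myeloperoxidase, rose by 2.49 (edgeR adjusted p = 0.0308) at 0.950 to 2.41 CPM in WT and 3.18, 18.5 and 8.68 CPM in KO. Progenitor markers thus moved with the cell cycle genes, high in KO replicates 2 and 3 and low in KO replicate 1, and their part in those differences was not tested.

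Outside the lists, the largest rises included Arhgef10l, a guanine nucleotide exchange factor, and Gpr141, an orphan receptor of myeloid cells. Arhgef10l was at 3.06, 5.13 and 2.85 CPM in WT and at 17.8, 14 and 28.5 CPM in KO (log2 fold change 2.44 with SE 0.429, edgeR adjusted p = 0.000879). Gpr141 was at 16.4, 9.35 and 7.28 CPM in WT and at 31.6, 29.1 and 68.5 CPM in KO (log2 fold change 1.95 with SE 0.331, edgeR adjusted p = 0.000701). In both genes all KO libraries exceeded WT, which was a condition of being named among the largest rises. Both calls held without each library. In M0 the estimates were -0.41 and -0.92, and the M2 effects differed from those by 2.85 and 2.87 (edgeR adjusted p = 0.000403 and 3.09e-05). Gm1821, a processed pseudogene, had 0 counts in WT and 395 in KO, at least 108-fold higher. It shares 89.4% of its 3′ stretches with the ubiquitin gene Ubb and other copies, so the source of these counts is uncertain. Il21r, the receptor of the cytokine IL-21, chosen after its values were seen, fell from 119, 94.1 and 103 CPM in WT to 32.6, 29.7 and 37.2 CPM in KO (log2 fold change -1.67 with SE 0.183, edgeR adjusted p = 5.99e-07), with little spread in either genotype.

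Genes near Trp53 were examined because a targeted allele carries flanking DNA of the strain it was made in. Of 200 genes of the table within 2 Mb, 80 were tested and 4 called (5%), close to the 3.56% of all genes. Rnasek (chr11:70238124-70239842), an RNase kappa gene, was at 264, 209.9 and 239 CPM in WT and at 136, 124 and 97.5 CPM in KO (log2 fold change -0.99 with SE 0.156, edgeR adjusted p = 0.000231), and shares 72.3% of its 3′ stretches with Gm21988. Fxr2 (chr11:69632990-69653297), an RNA-binding protein, was between 52.8 and 59.8 CPM in WT, against 29.5 to 35.8 CPM in KO (log2 fold change -0.79 with SE 0.185, edgeR adjusted p = 0.0132), and lies 41.1 kb from Trp53. Acadvl fell by 0.62 (edgeR adjusted p = 0.0255) and overlaps Dvl2, and Aurkb rose as given above. The median over the 80 genes was -0.16. Fxr2 lost its call without KO replicate 3, and Acadvl and Aurkb without WT replicate 1, WT replicate 3, KO replicate 2 or KO replicate 3.

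Size and abundance differed between the genes that rose and those that fell. The median length of the longest transcript was 3754 bases for genes called higher, 2764 for genes called lower and 3259 for all genes tested, and median levels were 28.0, 67.7 and 19.5 CPM. With the genes in 3 classes by length, 35 of the 3922 shortest were called higher and 116 lower, against 58 and 60 of the 3923 longest. The part of length in the calls was not tested.

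The genes called in M2 were followed in the other states. Of the 143 genes that rose in M2, 43 (30.1%) were called higher and 1 lower in M2 with AP-3-84, 45 (31.5%) and 2 in M1, and 10 (6.99%) and 68 in M0. Of all genes tested, 6.02%, 5.93% and 16.4% were called higher there. Of the 276 that fell, 94 (34.1%) were called lower and 4 higher with AP-3-84, 59 (21.4%) and 13 in M1, and 81 (29.3%) and 41 in M0, against 5.47%, 5.71% and 16.8% of all genes called lower. These comparisons share no library, but they share 1 estimate of the spread. The genes shared with AP-3-84 made up 6.06% of the 709 genes higher and 14.6% of the 644 lower there. In all 3 other comparisons, 3 of the risers and 19 of the fallers were called the same way. The M2 effect differed from the M0 effect in 3197 of all genes tested (27.1%) and from the M1 effect in 338 (2.87%). Among the genes called in M2, 106 of the 143 risers and 141 of the 276 fallers had an M2 effect beyond that in M0 in the same direction, and 12 and 65 beyond that in M1. The tests of difference use the M2 values that made the calls, so these counts are not independent of them.

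**Figure D5:**
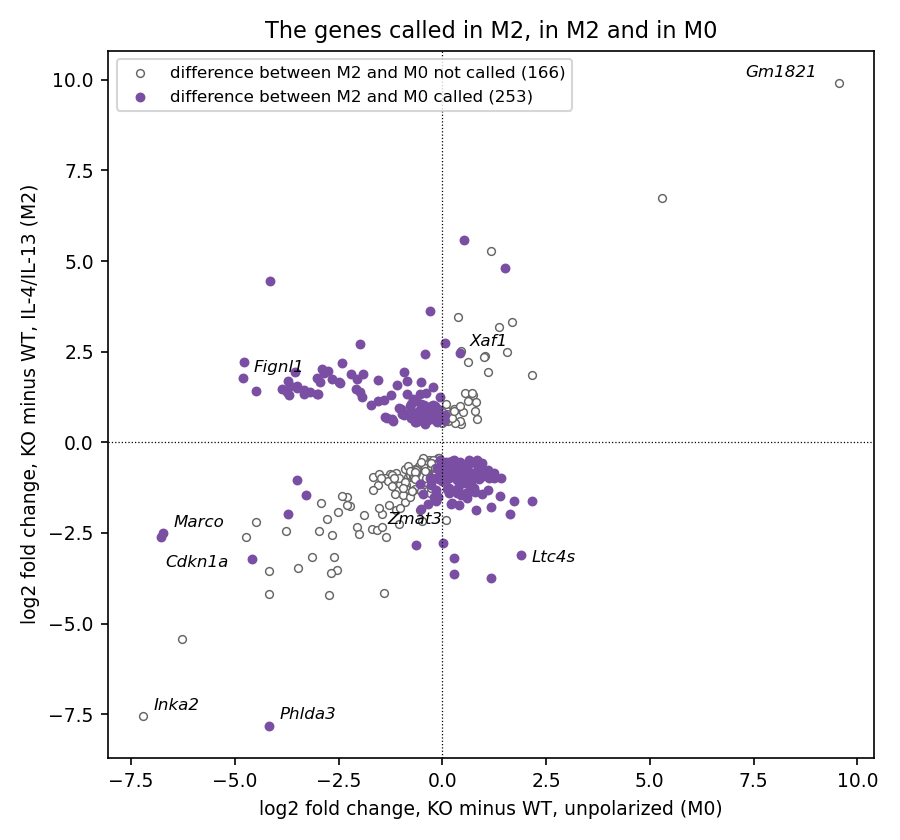
Log2 fold change (KO over WT) in M2 vehicle against that in M0 vehicle for the 419 genes called in M2, purple for the 253 whose effects differed between M2 and M0. Fignl1 is above 0 in M2 and below 0 in M0, Ltc4s is the reverse, and Cdkn1a, Phlda3, Inka2 and Zmat3 are below 0 in both.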

How the data were processed

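RNA of bone marrow-derived macrophages was measured from 3′ QuantSeq libraries, per the labels' protocols. The authors deposited 1 table of whole-number counts per gene, and the submitters' processing notes name Bowtie2, RSEM and DESeq2, without versions or roles. The genome build, the annotation, the use of strand and the handling of molecular identifiers were not given in any source used here. In the M2 vehicle libraries total counts ran from 3365693 to 4195908.

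Counts were fitted with edgeR 4.0.16 in R 4.3.3: genes were filtered with filterByExpr by group, scaled by TMM and tested with the quasi-likelihood F test (robust), over all 36 macrophage libraries in 12 groups of 3, so that groups share the estimate of spread (biological coefficient of variation 0.225). The contrasts were KO against WT within each state and the differences of those contrasts between states. The threshold for a call was an adjusted p (Benjamini-Hochberg) under 0.05, and p-values were adjusted over all 11779 genes tested. The SE of a log2 fold change was taken as its size divided by the square root of F. Ratios of genes with 1 to 3 counts in a group have exact 95% counting intervals, and groups at 0 were set to 3 counts, which cover counting error only. On simulated counts for this comparison with 11779 genes, 32 of 100 genes changed by 1 on the log2 scale and 76 of 100 changed by 2 were called, all with the right sign, and 5.26% of calls were false. The simulated counts took their spread from the same fit of 36 libraries. That share therefore does not measure false calls where real replicates vary more.

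Named genes were the genotype markers with Trp53, Mdm2 and Eda2r, the 12 largest rises and 12 largest falls among called genes of at least 8 CPM without overlap, all called p53 targets, up to 6 called members of every other list (2 of highest level where none was called), the 4 leading genes of each difference between states, and called genes within 2 Mb of Trp53. For the largest rises and falls, absence of overlap was thus a condition of being named and not a result. A few more are marked in the text as chosen afterwards. All of these are among the 61 genes called in every fit that left out a library. That their calls held is therefore no separate support. The members and lists were chosen with earlier results of these data known. Gene positions and 3′ ends are from GENCODE M21 on GRCm38, in which 51596 of 51789 gene IDs were found. 3′ ends were compared by stretches of 30 bases over the last 600. Overlaps with other annotated genes are named above for some genes only. Among others, exons of Ctsd, Glb1, Ephx1 and Gclm overlap another gene on the same strand. Those of Cdkn1a, Ltc4s, Icam1, Il1a and Sqstm1 overlap one on the opposite strand. The alternatives were median-ratio size factors, total counts, no filter on low counts, DESeq2 1.42.0, a fit to those groups alone that a contrast compares, a minimum log2 fold change of 1, a replicate block and the omission of each library. Results for a few genes are not reported here.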

Additional observations from a re-analysis of the deposited data

Results flagged for a closer look

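Among the named genes, the KO effect in M2 differed from that in M0 for 47 genes and from that in M1 for 21, by edgeR's test of the difference itself (adjusted p from 3.37e-07 to 0.0451 and from 4.76e-07 to 0.0475). The M2 values enter both differences. Values are the M2 effect minus the other, on the log2 scale.

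Against M0, the genes of DNA replication and cell division were all above 0: Fignl1 at 6.56, Mcm10 at 5.91, Cenpq at 5.49, Bub1 at 5.41, Hmmr at 5.33, Cdc45 at 5.21, Knl1 at 5.11, Ect2 at 5.00, Cep55 at 4.80, Aurkb at 4.76, Cenpe at 4.65, Cenpk at 4.41, Ndc80 at 4.34, Pola1 at 3.37 and Blm at 3.28. Of interferon-response genes, Ifi206 stood at 3.93, Ms4a4c at 2.69 and Xaf1 at 2.06. Marco stood at 4.24 and Tnf at 1.75, Gpr141 at 2.87 and Arhgef10l at 2.85. Among p53 targets, Gdf15 and Cdkn1a were at 1.81 and 1.37, while Bbc3, Dcxr, Ak1 and Phlda3 were at -0.95, -1.36, -2.20 and -3.64.

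Lysosomal and myeloid genes were below 0 against M0: Glb1 at -1.24, Tfe3 at -1.31, Ctsd at -2.01 and Gabarapl1 at -2.39, then Tyrobp at -1.41, Lyz2 at -1.47, Ctss at -1.52, Lgals3 at -1.32, C1qb at -2.23, H2-Aa at -3.03 and Cd163 at -3.92. Ltc4s was at -5.01. Pgd, Rnasek and Bcl2a1b were at -0.68, -0.72 and -0.84. Markers of other cells were Ighm at -2.22, Cd4 at -4.92, Col1a2 at -2.41 and Col1a1 at -3.32, whose levels in M0 KO libraries exceeded those in M0 WT libraries.

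Against M1, Ifi213 was at 5.13, Arhgef10l at 3.12 and Ms4a4c at 3.01. The other 18 were below 0. Of p53 targets these were Cdkn1a at -1.68, Mdm2 at -2.15, Ak1 at -2.53, Gadd45b at -3.07, Ephx1 at -3.08, Gdf15 at -3.73 and Plk2 at -4.03. Of NRF2 targets and related genes, Gclm was at -1.54, Prdx1 at -1.85, Srxn1 at -1.89, Sqstm1 at -1.95 and Gsta3 at -3.51. Of inflammatory genes, Nfkb2 was at -1.23, Tnf at -2.01, Il1a at -4.50, Mmp9 at -4.81 and Cxcl1 at -5.21. Ctsd was at -1.0.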

How the results depend on the processing

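Of 419 genes called between KO and WT in M2 vehicle, the count was 640 with total counts, 959 with no filter on low counts, 699 with DESeq2, 204 with a minimum log2 fold change of 1 and 7 with only the 6 libraries compared, where 1386 genes had an unadjusted p under 0.05. It ran from 97 to 916 when single libraries were left out, and was 438 with median-ratio size factors. With total counts, 76.6% of these calls were higher in KO against 34.1% with TMM. Calls with AP-3-84 were 657 at the minimum log2 fold change of 1 and 717 to 1287 without single libraries, and in M0 2108 and 2816 to 3705. In M1 they were 2093 with total counts (89.0% higher against 50.9%, with the median of all genes at 0.27), 623 at the minimum change and 580 to 1778 without single libraries. The difference between M2 and M1 had 936 calls with no filter, 589 with DESeq2, 80 with only the libraries compared and 86 to 934 without single libraries, and 20.6% were above 0 with total counts against 36.4%. The difference between M2 and M0 stayed within 1.5 times its count under every alternative run, from 2246 to 3482 without single libraries, with 65.2% above 0 with total counts against 51.4%. With only the 6 libraries compared, calls were 1480 with AP-3-84 (1353 in the main fit), 3821 in M0 (3906) and 1635 in M1 (1372). The fall from 419 to 7 in M2 vehicle was not seen in those comparisons. Where replicates of the M2 vehicle groups vary more than those of other groups, the shared spread gives p-values that are too small. Summed CPM of the cell cycle list in KO libraries ran from 3074 to 6969 in M2 vehicle. They ran from 965 to 1114 in M0, from 4021 to 6776 in M1 and from 2346 to 3871 in M2 with AP-3-84. The cause of the shifts in the counts of calls was not tested.

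Of 78 named genes called, 22 kept their call without each library and 6 under all 12 alternatives; 0 changed sign, and 35 lost their call without WT replicate 1. Genes that changed sign were not called: C3ar1 reached 0.19 with total counts and 0.015 with the replicate block, and without single libraries it ran from -0.29 to 0.27, H2-Aa from -0.69 to 0.83, Retnla from -2.52 to 0.50, Hmgcs1 from -0.89 to 0.11, S100a8 from -2.01 to 1.28, S100a9 from -1.57 to 1.68 and Col1a1 from -0.10 to 0.38. Same-numbered WT and KO libraries did not deviate together in M2 vehicle (correlations of -0.29, -0.13 and -0.30). Those of different number ran from -0.13 to 0.36. With 3 libraries per group, these values do not settle whether the numbers pair them. With the replicate block 397 genes were called. Library depth limits genes of a few CPM.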
